A study of Bos taurus with 20 samples.

Results

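The oocyte and the theca layer (TH) of the bovine antral follicle were compared on 8 of the 20 arrays of the series, 4 arrays of immature oocytes and 4 of TH, chosen by their titles. The follicles measured 3 to 6 mm and came from ovaries taken after slaughter. The oocytes had been separated from the aspirated cumulus-oocyte complexes, and TH had been scraped off the follicle wall. No culture or hormone was applied to either group, and breed, age and the number of animals or cells pooled per array were not given in the sources used here. Total RNA (200 ng) was amplified, labelled with the dye Cy3 and hybridised to a bovine 60K Agilent array. The methods call the 4 replicates biological, while the labels do not say which animals or pools each came from, and the p-values measure the spread between these samples. The 8 other arrays of fresh cells, granulosa cells (GC) and cumulus cells (CC), entered the fit for its estimate of the spread and are cited only as a description.

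In the antral follicle the oocyte sits inside the cumulus, GC line the wall, and the theca lies outside the basement membrane. Theca interna cells respond to luteinising hormone, take up cholesterol and turn it into androgens, and they lie among capillaries, fibroblasts and, in the theca externa, smooth muscle cells. The fully grown oocyte is held in meiotic prophase, transcribes little, and stores masked messenger RNA, cell cycle regulators and a thick subcortical protein lattice for meiosis and early cleavage.

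Values below are gene expression values, that is log2 of the background-corrected intensity minus the 75th percentile of the array, with the median taken over the probes of a gene. A value of 0 is therefore the 75th percentile of that array, and a difference of 2 between groups is 4-fold. Levels are compared between groups for the same gene and not between genes, since probes differ in brightness. A probe was above background where the scanner software had marked it so, and a gene where any of its probes was. Where a gene was above background on no array of a group, the difference is given only as a lower limit ("at least N-fold"), taken against the weakest signal above background on each array of that group. Where no p is printed beside such a limit, the limma adjusted p was 1.5e-07 or lower. Differences are oocyte minus TH with their standard error (SE), and adjusted p-values are from limma with Benjamini-Hochberg adjustment over 22550 genes and transcripts.

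To show what the probes of the main genes read, the opening 30 bases of the brightest 60-mer of each are printed below as the array files list them, for 3 genes that were high in the oocyte and 3 that were high in TH. The coordinates are the span of the transcript on build UMD 3.1 as the files give it, and the exon under the probe was not determined here.
NLRP5 (chr18:63668487-63683298): gtgtgcccttcacgtcctgggacttcagtt
GDF9 (chr7:46064180-46067119): cagctgccttcctcatggccaaatgtttaa
ZP2 (chr25:19228387-19240185): tgcgcaagaaaagaatcacagtgctaaacc
INSL3 (chr7:5252672-5254252): aaatctggcttgaggatccttggtttgcag
COL3A1 (chr2:7318227-7356937): gatatcggtggtcctgatcaagaatttggt
A2M (chr5:101298127-101346611): aatgcttaaagaccatgtcaatgaaaactg
The difference read by these single probes was 11.81 for NLRP5, 11.20 for GDF9, 7.64 for ZP2, -12.55 for INSL3, -14.04 for COL3A1 and -11.06 for A2M.

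The labels held on their defining markers. NLRP5, a protein of the oocyte's subcortical lattice, had values of 6.32, 6.19, 6.36 and 6.46 on the oocyte arrays and -6.19, -5.63, -6.28 and -5.77 on the TH arrays, where it was above background on 3 of 4. ZP2, a glycoprotein of the zona pellucida, had 5.44, 4.89, 5.36 and 5.39 in the oocyte and -2.18, -2.38, -1.36 and -2.75 in TH. The groups lay far apart for both genes, with differences of 12.30 (SE 0.49, limma adjusted p = 4.8e-12) and 7.44 (SE 0.54, limma adjusted p = 5.0e-09). COL1A2, a chain of type I collagen, had -2.90, -2.43, -2.43 and -2.54 in the oocyte and 6.40, 6.22, 6.28 and 6.25 in TH. MGP, the matrix Gla protein, had -3.33, -1.21, -2.70 and -1.39 against 8.66, 8.22, 8.68 and 7.96. The plasma protease inhibitor A2M had -8.93, -6.26, -8.93 and -7.95 against 2.65, 1.52, 2.89 and 3.20, and no oocyte array read it above background. These 3 genes separated the groups in the opposite direction, by -8.86 (SE 0.88, limma adjusted p = 2.1e-07) for COL1A2, by -10.54 (SE 1.00, limma adjusted p = 1.3e-07) for MGP, and by at least 353-fold (limma adjusted p = 1.8e-10) for A2M.

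**Figure D1:**
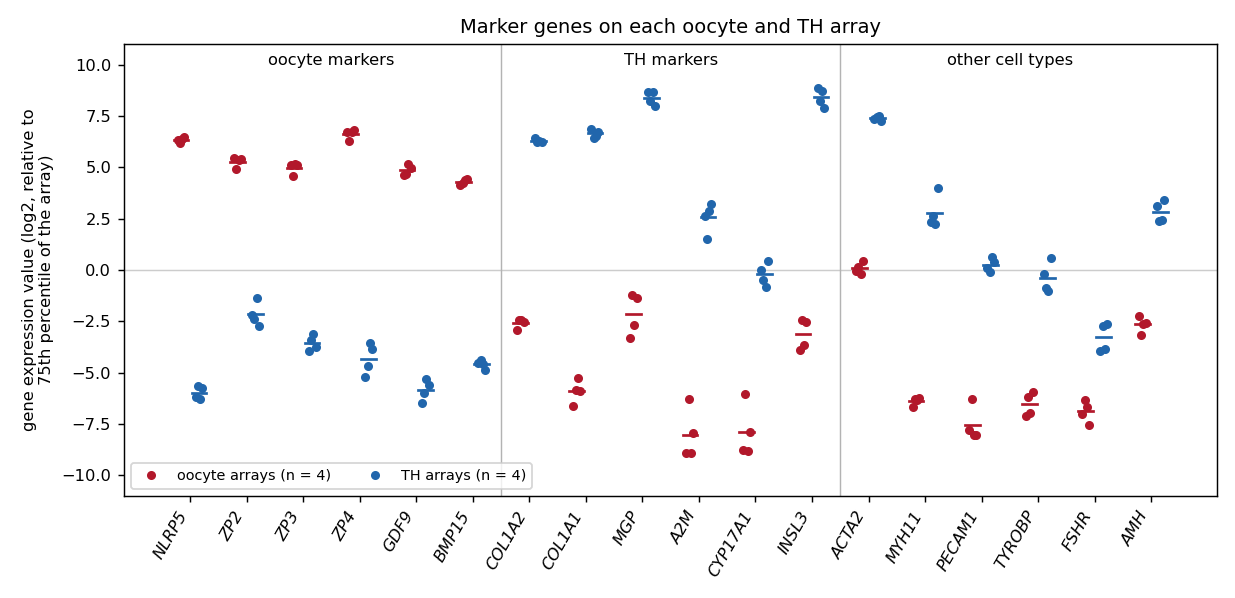
Gene expression value (log2, relative to the 75th percentile of the array) of 18 marker genes on each of the 4 oocyte arrays (red) and 4 TH arrays (blue), with bars at the group means. The 6 oocyte markers lay above the TH arrays on every oocyte array, and the other 12 genes lay below them. Genes of the endothelial and leukocyte lists that overlapped (VWF) or were higher in the oocyte (TEK, CSF1R) are not drawn.

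Scraped TH is a layer and not a pure cell type, and its markers showed that. Among 16 smooth muscle and pericyte genes, 15 were above background on all 4 TH arrays and their summed linear value was 232 to 261, against 10.3 to 15.1 in the oocyte. The sum of 12 granulosa and cumulus markers was 158 to 279 in TH, beside 441 to 1001 in GC, and 4.75 to 5.92 in the oocyte. Of the 10 of these 12 genes that were measured, 9 were lower in the oocyte and none higher. AMH, a hormone made by granulosa cells, had 3.12, 2.38, 2.42 and 3.42 on the TH arrays and a mean of 4.68 in GC. FSHR, also among the 12, lay further apart, with means of -3.29 in TH and 2.13 in GC. The median over the 12 markers was -1.10 in TH and 3.20 in GC. Endothelial genes summed to 21.7 to 34.4 in TH and 3.63 to 5.23 in the oocyte. Leukocyte genes summed to 13.3 to 23.1 in TH and 12.5 to 15.1 in the oocyte, a sum that includes CSF1R, which was higher in the oocyte. The median over the leukocyte genes was -1.42 in TH and -6.16 in the oocyte. In the other direction, the 6 theca markers (COL1A1, COL1A2, MGP, A2M, CYP17A1 and INSL3) summed to 0.315 to 0.851 in the oocyte and 679 to 1079 in TH, and the 6 oocyte markers to 0.367 to 0.668 in TH and 248 to 330 in the oocyte. In such bulk samples fewer cells of a type and less RNA per cell cannot be told apart, and the part that mixed cells had in the differences below was not tested.

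Signal was not equal between the groups. The 75th percentile of intensity was 1521 to 2889 on the oocyte arrays and 424 to 1101 on the TH arrays, and 49.35 to 68.75% of probes were above background in the oocyte against 59.14 to 61.83% in TH. Oocyte replicate 2 stood apart with the lowest of these shares (49.35%), and its weakest probe above background lay at -4.02, against -6.84 to -5.91 on the other oocyte arrays. No spot was saturated. The number of arrays limits the precision. Over the 16780 genes above background on at least 3 arrays of a group, the median SD between replicates was 0.23 in the oocyte and 0.33 in TH.

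The 2 cell populations differed over most of the array. At an adjusted p below 0.05, 7339 genes (32.5% of those tested) were higher and 7238 (32.1%) lower in the oocyte than in TH. A difference of at least 4-fold was called for 3900 genes in the upward direction (17.3%) and 3960 in the downward direction (17.6%), counts that became 2092 upward under normexp background correction and 2523 downward in the deposited log2 table. Among the genes above background, 7177 (42.8%) were higher and 6537 (39.0%) lower, and the difference reached 5 log2 units for 731 and 951 of them. The shares of 42.8% and 39.0% are the background for the list counts below. At the extreme, 871 genes were above background on 4 oocyte arrays and no TH array, and 673 the reverse. The counts depended on the processing. The split of 7339 higher to 7238 lower became 6480 to 9709 with the percentile taken over probes detected on every array, 5427 to 14488 with normexp and 7720 to 11877 in the deposited log2 table. Leaving out oocyte replicate 2 gave 7316 to 11066. The median difference over all genes, -0.42, was 0.05 under quantile normalisation and -1.16 under normexp, and each list below is set beside it. With genes not above background in a group set at their limit, that median was 0.00.

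**Figure D2:**
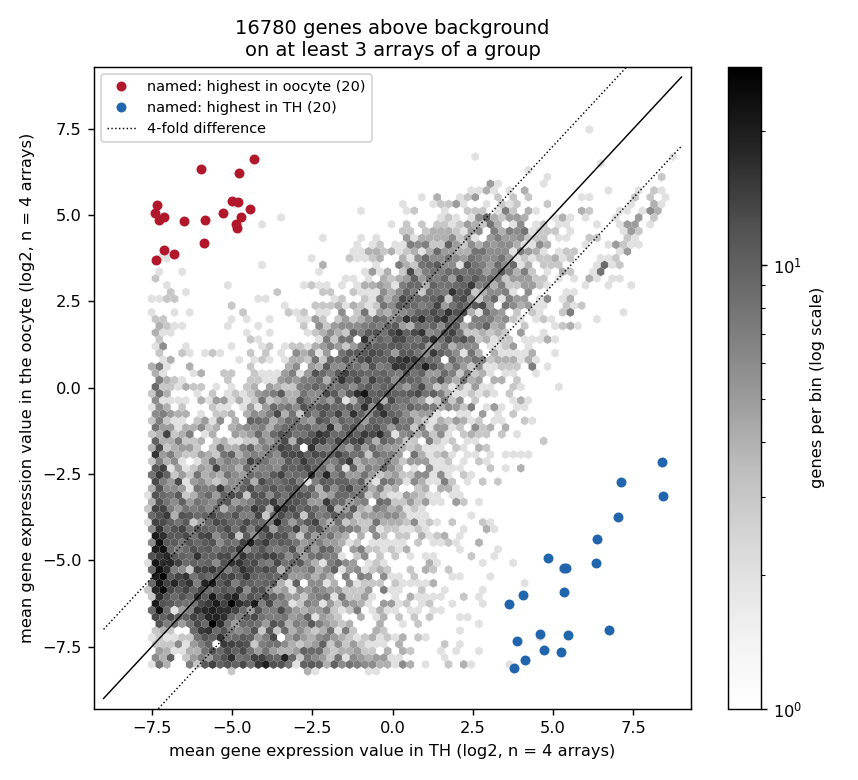
Mean gene expression value in the oocyte (vertical axis, log2, n = 4 arrays) against the mean in TH (horizontal axis, log2, n = 4 arrays) for the 16780 genes above background on at least 3 arrays of a group, with grey shade for the number of genes per bin on a log scale. Red and blue points are the 20 and 20 genes named for the largest differences, the solid line marks equal values and the dotted lines a 4-fold difference, and the points at the left and lower edges are genes that were at background in TH or in the oocyte.

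Genes of the zona pellucida and of oocyte-to-somatic signalling were all higher in the oocyte. The zona genes on the array, ZP2, ZP3 and ZP4, which encode the coat that sperm bind, were 3 of 3 higher (median difference 8.55). ZP4 had 6.70, 6.27, 6.70 and 6.82 in the oocyte and -5.22, -4.66, -3.57 and -3.83 in TH, a difference of 10.94 (SE 0.61, limma adjusted p = 2.1e-10). GDF9 and BMP15, the growth factors by which the oocyte acts on cumulus cells, were both higher. GDF9 had 4.63, 4.68, 5.17 and 4.98 in the oocyte and was above background on no TH array, which makes it at least 1135-fold higher (limma adjusted p = 1.2e-12). BMP15 had 4.13 to 4.41 against -4.86 to -4.40, a difference of 8.87 (SE 0.31, limma adjusted p = 1.2e-12), although its probes ranged from 6.06 to 11.69. No array overlapped between groups for any of these 5 genes, as for 13190 of all 22550 genes in 1 direction or the other.

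Of 13 genes of the subcortical complex and other maternal-effect genes found on the array, 12 were higher and 1 was lower, with a median of 10.60 (9.11 with genes at their limit). NLRP9, of the same family of lattice proteins as NLRP5, had 6.62, 6.23, 6.63 and 6.67 in the oocyte and was above background on 1 of 4 TH arrays. DPPA3, which protects maternal methylation in the zygote, had 5.20, 4.82, 5.18 and 5.06 in the oocyte and was at least 1308-fold higher than in TH (limma adjusted p = 4.9e-12). ZAR1, an RNA-binding protein needed for the oocyte-to-embryo transition, was at least 1190-fold higher (limma adjusted p = 7.6e-12). Its relative ZAR1L was above background in both groups and differed by 10.99 (SE 0.41, limma adjusted p = 2.3e-12). KHDC3L, another lattice component, was at least 438-fold higher, and NLRP14 at least 572-fold. The lattice gene OOEP was the least exclusive of these, at 4.79, 4.76, 5.20 and 5.02 in the oocyte and 0.66, 0.38, -1.42 and -0.33 in TH. The chromatin regulator TRIM28 went the other way, at -0.78 (SE 0.21, limma adjusted p = 0.0041), with overlapping arrays and adjusted p-values of 0.43 in the deposited log2 table and 0.39 within slide 1. By the median of its probes TLE6 is among the 12, but it cannot be given a direction, since its probes ranged from -2.42 to 6.73. With the brightest probe, 11 of the 13 genes were higher and 2 lower.

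Transcription factors of the oocyte were mostly higher as well. FIGLA, which switches on the zona genes, had 4.47, 4.72, 4.94 and 4.80 against -5.95, -4.24, -4.46 and -4.88, a difference of 9.61 (SE 0.70, limma adjusted p = 5.7e-09). NOBOX, a homeobox factor of folliculogenesis, differed by 7.91 (SE 0.43, limma adjusted p = 1.9e-10). LHX8 was at least 13.7-fold higher, SALL4 at least 23.3-fold and the pluripotency factor POU5F1 at least 6.55-fold, none of them above background on a TH array. In all, 7 of the 8 measured factors of 9 on the array were higher and none lower (median over the 9 of 4.22, or 2.73 with genes at their limit). The count of higher calls fell to 5 under normexp. The value of SOHLH1, an early germ cell factor, was -5.07 ± 0.95 in the oocyte and -5.32 ± 0.31 in TH (SD, n = 4), and its probes disagreed in sign.

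Genes for the storage and decay of maternal messenger RNA were higher in 16 of 19 cases and lower in 2 (median 4.47, or 3.80 with genes at their limit). BTG4, the adaptor that brings the deadenylase to maternal messages at maturation, gave the largest limit upward, at least 1539-fold (limma adjusted p = 1.9e-10), from 5.58, 4.89, 5.41 and 5.32 in the oocyte to no TH array above background. CNOT7, the deadenylase it recruits, differed by 2.39 (SE 0.14, limma adjusted p = 3.7e-10), and the related CNOT6L by 3.80 (SE 0.28, limma adjusted p = 6.1e-09). YBX2, which coats and masks stored messages, differed by 9.05 (SE 0.27, limma adjusted p = 2.9e-13). The RNA-binding protein IGF2BP3 had 5.03, 5.03, 5.06 and 5.17 in the oocyte against -5.96, -4.54, -4.38 and -6.25. Among the exceptions was DDX6, a helicase that represses translation, at -1.53 (limma adjusted p = 7.8e-06).

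Every one of the 24 genes of M-phase control on the array was higher in the oocyte, under every scaling, probe summary, slide and left-out replicate tried (24 of 24, median 4.44). The cyclins that activate CDK1 were among them. CCNB1 had 5.76, 5.28, 5.55 and 5.53 in the oocyte and -0.24, 1.15, -0.36 and 0.69 in TH, a difference of 5.22 (SE 0.36, limma adjusted p = 2.8e-09). CCNB3 differed by 5.69 (SE 0.24, limma adjusted p = 1.2e-11) and CDK1 itself by 3.11 (SE 0.38, limma adjusted p = 2.2e-06). The spindle kinase AURKA had 7.10, 6.30, 6.74 and 6.93 against -0.17, 1.11, 0.30 and 1.00, and PTTG1, the securin that holds sister chromatids together, differed by 4.45 (SE 0.36, limma adjusted p = 1.9e-08). The brakes on M-phase were higher too. WEE2, the oocyte kinase that keeps CDK1 inactive during prophase arrest, was at least 133-fold higher (limma adjusted p = 9.9e-13), and FBXO43, which holds the egg in metaphase, had 1.52 to 1.75 in the oocyte and was above background on 1 of 4 TH arrays. The smallest differences were those of AURKB (1.38, SE 0.30, limma adjusted p = 0.00084) and BIRC5 (1.74, SE 0.43, limma adjusted p = 0.0019), partners at the centromere.

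Proliferation genes did not follow as a block. Of 29 replication and cell cycle genes, 17 were higher and 3 lower (median 1.14). CDC6, which loads the replicative helicase, differed by 5.53 (SE 0.43, limma adjusted p = 1.1e-08) and cyclin A2 (CCNA2) by 4.92 (SE 0.43, limma adjusted p = 4.2e-08). The 3 lower genes were the D-type cyclins, which couple growth factor signals to entry into the cell cycle. CCND2 had -2.07, -2.84, -2.52 and -2.99 in the oocyte and 0.61, 1.51, 1.19 and 2.77 in TH. CCND3 differed by -4.68 (SE 0.16, limma adjusted p = 7.2e-13) and CCND1 by -2.59.

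Most measured genes of meiotic prophase and of the piRNA pathway, which silences transposons in germ cells, were also higher in these oocytes. Of 16 measured meiotic genes (20 on the array), 15 were higher and 1 lower, with a median of 2.29 over the 20 that became 1.29 with genes at their limit and -0.04 under normexp, when 9 were still called higher. SYCP3, a lateral element of the synaptonemal complex, had 3.33, 3.53, 3.88 and 3.52 in the oocyte and -2.56, -4.15, -4.26 and -4.92 in TH. The meiotic cohesin SMC1B was at least 36.0-fold higher (limma adjusted p = 4.5e-11) and the recombination protein MSH5 differed by 5.52 (SE 0.28, limma adjusted p = 8.3e-11). The exception was REC8, the meiotic kleisin, at -0.91 (SE 0.26, limma adjusted p = 0.0058), with arrays that overlapped and an adjusted p of 0.086 within slide 1. SPO11, which makes the meiotic breaks, and DMC1, which repairs them, were above background on no oocyte array.

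In the piRNA list 18 of 19 measured genes were higher and 1 lower (20 on the array, median 3.39, or 3.00 with genes at their limit; normexp left 13 higher calls). MAEL had 4.95, 4.81, 5.05 and 4.92 in the oocyte and -5.04, -4.48, -4.50 and -4.89 in TH, a difference of 9.66 (SE 0.42, limma adjusted p = 1.5e-11). The helicase DDX4, a general germ cell marker, was at least 38.6-fold higher, and TDRD5 at least 95.4-fold. PIWIL3 had -2.06, -1.96, -2.01 and -2.01 in the oocyte and was at least 9.68-fold higher (limma adjusted p = 6.8e-13). PIWIL1 was above background on 3 oocyte arrays at -5.49 ± 0.04 (SD, n = 4) and changed sign under normexp (-0.69), as did PIWIL2 (-0.09). NANOS3, a germ cell RNA-binding protein, was the lower gene, at -2.98 ± 0.30 in the oocyte and -0.31 ± 0.29 in TH (SD, n = 4). Its mean was 0.32 in GC and 0.45 in CC.

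The enzymes that write and remove DNA methylation split. DNMT1, the maintenance methyltransferase, had 5.02, 5.27, 5.29 and 5.41 against 2.19, 2.92, 2.16 and 2.91, and its partner UHRF1 differed by 4.96 (SE 0.39, limma adjusted p = 1.4e-08). The de novo enzyme DNMT3B was at least 14.4-fold higher, whereas DNMT3A had -1.88 ± 0.06 in the oocyte and -1.39 ± 0.58 in TH (SD, n = 4; limma adjusted p = 0.15, 0.013 without TH replicate 4). On the removal side TDG, a glycosylase of the demethylation pathway, had -6.78, -6.19, -6.13 and -5.74 in the oocyte and 1.10, 1.25, 0.98 and 1.21 in TH, a difference of -7.35 (SE 0.18, limma adjusted p = 4.8e-14). Each TDG probe was above background on only 1 or 2 oocyte arrays, so the oocyte values lie near background. TET1 was lower by a difference of -3.38, while TET3, the dioxygenase of the egg, was above background on 3 oocyte arrays and no TH array. Its value was -4.42 ± 0.31 (SD, n = 4) in the oocyte, called higher (limma adjusted p = 6.6e-10), but its difference turned to -0.27 under normexp. Of the 10 measured genes (11 on the array) 6 were higher and 2 lower, and the median of 1.75 turned to -0.27 under normexp.

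Of 7 egg surface and egg activation genes, 3 were higher and 4 lower (median -2.32), beside 42.8% and 39.0% of all measured genes. CASR, the calcium-sensing receptor, had 3.29, 3.37, 3.33 and 3.23 in the oocyte and was above background on 1 of 4 TH arrays, a difference of 10.18 (SE 0.36, limma adjusted p = 1.4e-12). ASTL, the cortical granule protease that cleaves ZP2 after fertilisation, was at least 32.8-fold higher. CD9, a tetraspanin that eggs need for sperm fusion and that many somatic cells carry, had -0.80, -0.54, -0.59 and -0.37 in the oocyte and 2.16, 2.43, 1.90 and 2.37 in TH. Its partner CD81 differed by -2.32 (SE 0.72, limma adjusted p = 0.0099), but oocyte replicate 1 overlapped TH, and within slide 1 the adjusted p was 0.52.

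Outside these lists, the largest differences upward held several genes with no textbook role in the oocyte. NEFL, the light chain of neurofilaments, had 4.63, 5.04, 4.63 and 4.97 in the oocyte and -5.83, -6.79, -6.24 and -7.18 in TH, a difference of 11.32 (SE 0.58, limma adjusted p = 8.6e-11). PDE6C, a phosphodiesterase of cone photoreceptors, had 4.19, 4.13, 4.30 and 4.17 against -6.06, -5.58, -4.96 and -6.87. Non-overlap between the arrays of the groups was a condition for naming both genes. The forkhead factor FOXR1 differed by 10.19 (SE 0.83, limma adjusted p = 1.9e-08), and FAM154A by 10.39 and PHYHIPL by 9.63. KCNN4, a calcium-activated potassium channel, reached 9.45 by the median of its probes, which ranged from 0.18 to 9.51. Among genes not above background on any TH array, the oocyte-secreted protein OOSP1 was at least 1139-fold higher, the homeobox gene DBX1 at least 624-fold and ACCSL at least 509-fold.

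Matrix genes of the theca were lower in the oocyte. All 19 members of the list of fibrillar and basement membrane collagens were lower in the oocyte, under every scaling, probe summary, slide and left-out replicate tried, with a median of -6.73 (-6.11 with genes at their limit). COL3A1, the fibrillar collagen of soft tissue, had 5.50, 5.14, 5.59 and 5.58 in TH and was above background on no oocyte array, at least 2616-fold lower (limma adjusted p = 1.8e-10). COL1A1, above background on 2 oocyte arrays, had -6.63, -5.84, -5.27 and -5.89 in the oocyte and 6.88, 6.44, 6.54 and 6.71 in TH. COL4A1, of the basement membrane, was above background in both, at -1.01 ± 0.23 and 6.25 ± 0.17 (SD, n = 4). COL5A3 marked the small end, at -2.11 (SE 0.25, limma adjusted p = 1.7e-06). Of the 14 measured genes (15 on the array) that hydroxylate, fold, cut or crosslink collagen, all 14 were lower, among them the collagen chaperone SERPINH1 at -8.43 (SE 0.22, limma adjusted p = 8.2e-14) and the crosslinking enzyme LOXL2 at least 263-fold. P4HA2, a subunit of prolyl 4-hydroxylase, was the least different, at -1.17 (SE 0.22, limma adjusted p = 0.00017).

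Matrix glycoproteins and proteoglycans were lower in 25 of 27 cases and higher in 1 (median -5.19). The lumican gene LUM was at least 1578-fold lower, the related ASPN at least 820-fold, and the matricellular SPARCL1 at least 6396-fold, the largest limit in either direction. SPARCL1 had 6.80, 6.51, 6.83 and 6.83 in TH. SPARC, which binds collagen, was above background on all 8 arrays and differed by -10.76 (SE 0.33, limma adjusted p = 3.3e-13), from -4.40, -4.02, -3.03 and -3.54 to 7.28, 6.87, 7.07 and 6.80. BGN, a small proteoglycan, was above background on 1 oocyte array and differed by -12.98 (SE 0.70, limma adjusted p = 1.5e-10). DCN was lower by every probe, but by amounts from -13.79 to -2.26. The higher gene was VCAN, the large proteoglycan of expanding cumulus, with -1.43, -1.91, -1.27 and -1.77 in the oocyte and -2.83, -2.53, -2.57 and -2.85 in TH, a difference of 1.10 (SE 0.23, limma adjusted p = 0.00046) at a mean of 1.70 in CC.

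The steroid pathway of the theca was lower in 9 of 13 genes and higher in 2 (median -3.65, or -3.22 with genes at their limit). CYP17A1, which makes androgens, had 0.01, -0.51, -0.81 and 0.44 in TH and was above background on no oocyte array, at least 51.5-fold lower (limma adjusted p = 3.7e-09). CYP11A1, which cleaves the cholesterol side chain, had -6.18, -4.92, -5.94 and -5.58 in the oocyte and 3.91, 3.66, 3.78 and 4.98 in TH. HSD3B, the next enzyme, differed by -9.16 (SE 0.43, limma adjusted p = 3.2e-11). INSL3, the peptide hormone of theca cells, gave -3.90, -2.42, -3.63 and -2.55 against 8.86, 8.20, 8.72 and 7.90, a difference of -11.54 (SE 0.43, limma adjusted p = 2.6e-12). The luteinising hormone receptor LHCGR was at least 28.1-fold lower and the lipoprotein receptor SCARB1 differed by -7.92 (SE 0.20, limma adjusted p = 5.2e-14).

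Not every gene of this pathway was low in the oocyte. STAR, the protein that carries cholesterol into mitochondria, had 3.34, 3.52, 3.53 and 3.32 in the oocyte and 2.57, 2.55, 1.91 and 2.06 in TH, beside means of 0.00 in GC and -3.15 in CC. Each oocyte array lay above each TH array, and 13190 of all 22550 genes had no overlap in 1 direction or the other. The difference of 1.16 had an SE of 0.64 pooled over the 4 cell types (limma adjusted p = 0.13) and reached an adjusted p of 0.00085 when only the 8 arrays were fitted. Ferredoxin (FDX1), the electron carrier of CYP11A1, was higher by a difference of 1.10 (SE 0.19, limma adjusted p = 8.1e-05), and cytochrome b5 (CYB5A), the cofactor of CYP17A1, by 2.21 (SE 0.25, limma adjusted p = 1.2e-06).

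Genes of the other cells of the wall were lower with the matrix, apart from a few whose values in the oocyte were above or overlapped those in TH. All 16 smooth muscle and pericyte genes were lower (median -4.93), with ACTA2, the smooth muscle actin, at -0.05, 0.16, -0.21 and 0.42 in the oocyte against 7.35, 7.46, 7.50 and 7.26, and TAGLN, an actin-binding protein, at a difference of -9.80 (SE 0.35, limma adjusted p = 1.8e-12). Of 15 measured endothelial genes (16 on the array), 13 were lower and 1 higher (median -2.91). PECAM1, the endothelial adhesion molecule, had 0.09, -0.09, 0.63 and 0.37 in TH and was above background on 1 oocyte array, and the sialomucin EMCN was at least 182-fold lower. CDH5, another defining gene, was above background on 1 TH array. TEK, the angiopoietin receptor, had 1.26, 1.27, 1.52 and 1.28 in the oocyte and 0.57, 0.16, 1.00 and 0.12 in TH, with means of -2.92 in GC and -3.71 in CC. Its difference of 0.87 (SE 0.31, limma adjusted p = 0.023) lost its call under quantile normalisation (0.052) and within either slide (0.086 and 0.16), and without oocyte replicate 3 (0.058) or without TH replicate 2 (0.066) or 4 (0.066). VWF, a clotting protein of endothelium, had 1.00, -1.32, -0.95 and -1.11 in the oocyte and -0.54, -1.33, 0.18 and 1.62 in TH (limma adjusted p = 0.38), a difference that was 0.78 within slide 1 (limma adjusted p = 0.51) and -1.93 within slide 2 (limma adjusted p = 0.014), with means of -5.24 in GC and -6.42 in CC. ELN, the elastin gene, likewise had 0.91, 0.93, 1.07 and 1.02 in the oocyte and 0.51, -0.21, 0.50 and 1.30 in TH (limma adjusted p = 0.55, or 0.005 for 0.99 in the deposited log2 table), and was above background on no CC array.

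Of 18 measured leukocyte genes (20 on the array), 16 were lower and 1 higher (median -4.33). TYROBP, an adaptor of myeloid receptors, had -0.21, -0.90, -1.02 and 0.58 in TH and -7.09 to -5.92 in the oocyte, and the complement gene C1QB of macrophages was at least 281-fold lower. The higher gene was CSF1R, the receptor of macrophage colony-stimulating factor, with 3.49, 3.74, 3.77 and 3.79 in the oocyte and 1.97, 1.42, 1.19 and 1.81 in TH, a difference of 2.10 (SE 0.51, limma adjusted p = 0.0017). Its means were -2.03 in GC and -3.25 in CC. The leukocyte sum in the oocyte, CSF1R included, was 12.5 to 15.1, and PTPRC, the pan-leukocyte marker, was above background on no oocyte array.

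The measured genes in the lists of antigen presentation and of complement and plasma proteins were lower in the oocyte. All 15 genes of class I presentation and the interferon response were lower (median -5.82). IFITM2, an interferon-induced membrane protein, had -5.97, -5.54, -3.60 and -5.18 in the oocyte and 6.67, 6.34, 5.91 and 6.44 in TH, and IFITM3 differed by -8.98 (SE 0.34, limma adjusted p = 2.6e-12). A class I heavy chain gene listed as BOLA differed by -9.90 (SE 0.35, limma adjusted p = 1.4e-12), while B2M, its light chain, was lower by -2.59 (SE 0.17, limma adjusted p = 2.0e-09) and kept 2.49 to 2.86 in the oocyte. All 6 measured class II genes (7 on the array) were lower, BOLA-DRA by at least 813-fold and the invariant chain CD74 by at least 69.4-fold. Of 18 complement and plasma protein genes, 16 were measured and all 16 were lower (median over the 18 of -7.78). The list left out C5, PLG and FGB, which the paper names as overexpressed in oocytes, so it does not speak for the whole system. C1S, a complement protease, was at least 871-fold lower. The apolipoprotein APOA1 had -4.08, -4.11, -4.63 and -4.69 in the oocyte and 6.90, 5.88, 6.25 and 6.46 in TH.

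Further genes among the largest downward differences had various roles. IGF2, an insulin-like growth factor, differed by -10.55 (SE 0.61, limma adjusted p = 3.2e-10), with probes from -12.09 to -7.34, and its binding protein IGFBP6 had 7.18, 7.14, 7.08 and 7.08 in TH against -3.08 to -2.20 in the oocyte. The transglutaminase TGM2 differed by -10.62 (SE 0.35, limma adjusted p = 7.8e-13) and PDLIM3, a protein of muscle Z-discs, by -10.08 (SE 0.64, limma adjusted p = 1.1e-09). A gene listed as GPC differed by -11.24 (SE 0.26, limma adjusted p = 2.0e-14). Among genes not above background on any oocyte array, the G protein subunit GNG11 was at least 2281-fold lower, the water channel AQP1 at least 1438-fold and OTOS at least 1051-fold.

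**Figure D3:**
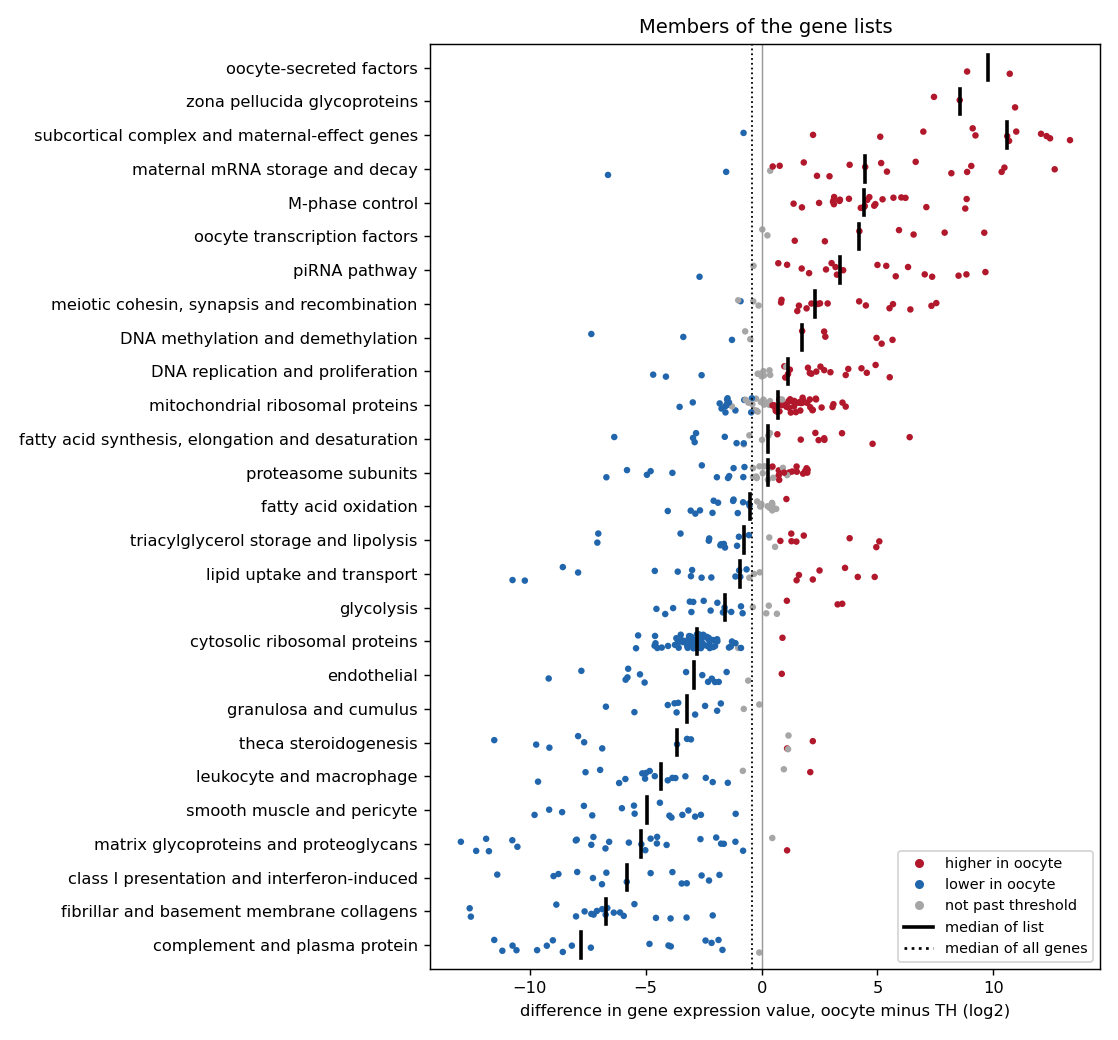
Difference in gene expression value (log2, oocyte minus TH) of each member of 27 gene lists, 1 point per gene, red for higher and blue for lower at an adjusted p below 0.05 and grey otherwise. Thick bars are list medians and the dotted line is the median of all genes (-0.42). The medians ran from 10.60 for subcortical complex and maternal-effect genes to -7.78 for complement and plasma proteins, and genes below background in a group are drawn at their measured value, which is not a limit.

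Germ cells often use their own member of a widely expressed gene family. Here 21 pairs of related genes were compared, not all with a germline member. The pairs were chosen with earlier results of these data known, so the counts depend on that choice. In 18 of the pairs the first-named gene had the more positive difference, also with genes at background in TH set at their limit. In 2 it had the less positive one, and 1 pair could not be ordered. For 4 pairs the opening 30 bases of the brightest probe of each gene are printed, with capitals on the longest run common to both.
NPM2 (chr8:69839082-69853632): CAACtctcggctgctgcaggaagagccctg
NPM1 (chr20:3111198-3123860): ttgaaaatgtctgtacagcCAACggtttct
WEE2 (chr4:105810983-105837062): ttaagaaaTGCCaaatgtctggtaggagga
WEE1 (chr15:43668580-43682433): gaagtacTGCCttgtgaatttgctgctatt
BTG4 (chr15:22105614-22120867): ttgaaacagcCCTTtcaatcttggttccga
BTG1 (chr5:22086071-22088781): CCTTgtacttaattgggtaaaagtcttttc
PABPC1L (chr13:74043097-74066950): gctggTCACCcggccaacctcttgcctgtt
PABPC1 (chr14:65816006-65833756): gaccatgaaaagaaactcgtgctTCACCga
Over the full 60 bases no probe of a pair shared a run of more than 9 bases with a probe of its partner. Probes were not compared with the partner's transcript, so whether a probe also reads the partner was not tested.

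NPM2, the nucleoplasmin that remodels sperm chromatin, had 6.46, 6.25, 6.52 and 6.58 in the oocyte and -3.69, -1.89, -1.58 and -3.45 in TH. The nucleolar NPM1 differed by -0.03 (SE 0.15, limma adjusted p = 0.85), and by 0.59 in the deposited log2 table. WEE2 was at least 133-fold higher while WEE1, the somatic kinase of the same site, differed by -5.73 (SE 0.31, limma adjusted p = 1.6e-10) and was above background on 1 oocyte array. BTG4 and BTG1 parted in the same way, BTG1 at -1.95 (SE 0.20, limma adjusted p = 2.9e-07). Of the poly(A)-binding proteins, the oocyte form PABPC1L differed by 5.16 (SE 0.28, limma adjusted p = 1.4e-10) and the general form PABPC1 by -2.09 (SE 0.13, limma adjusted p = 8.8e-10). The oocyte linker histone H1FOO differed by 5.76 against -1.68 for H1F0, and the importin KPNA7, above background on 1 TH array, by 11.58 against 3.05 for KPNA2.

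The pairs with the opposite order were REC8 with RAD21 (-0.91 against 0.97) and LDHB with LDHA (-2.20 against 3.28). TAF4B could not be ordered against TAF4, since it was above background on no TH array (at least 1.12-fold higher, limma adjusted p = 0.0011), while TAF4 differed by 2.60 (limma adjusted p = 2.0e-07). LDHB is not a germline gene. It makes the lactate dehydrogenase chain of oxidative tissues, and had 4.31, 4.15, 4.27 and 4.31 in the oocyte and 6.49, 6.55, 6.58 and 6.22 in TH. LDHA, the chain of glycolytic tissues, had 5.80, 5.63, 5.76 and 5.86 against 2.11, 2.75, 2.37 and 2.70. For UCHL1 and UCHL3, ubiquitin hydrolases, the differences were 2.25 and 2.08 and the within-array gap overlapped between groups.

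**Figure D4:**
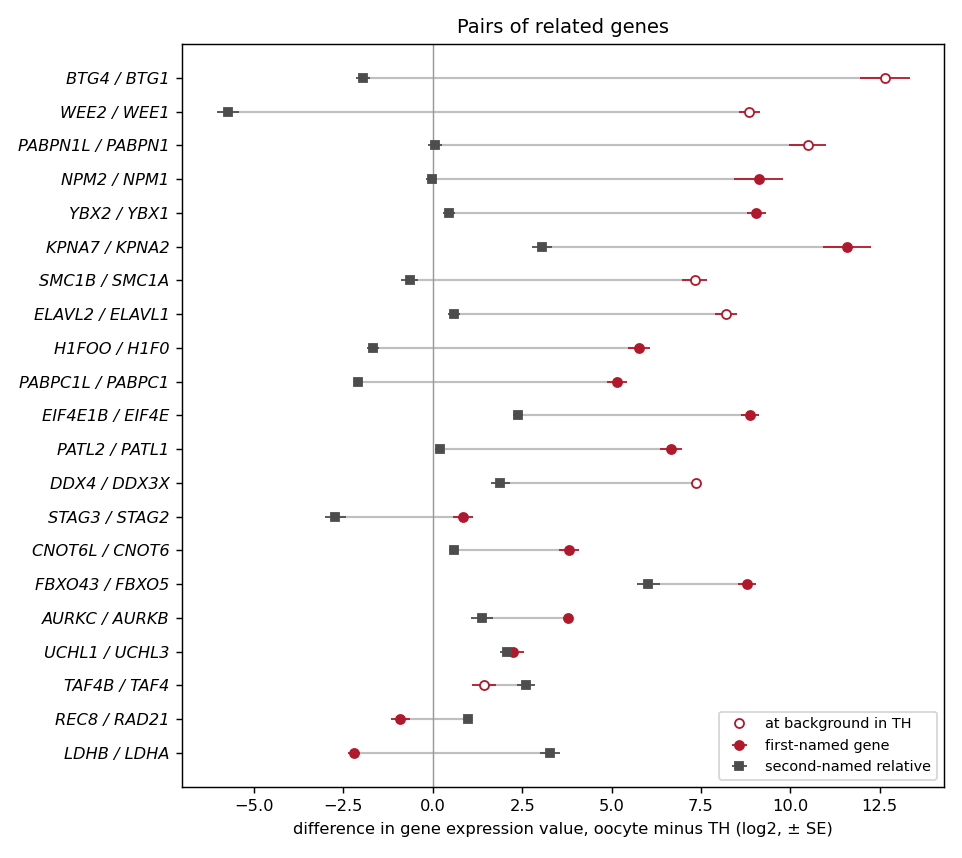
Difference in gene expression value (log2, oocyte minus TH, bars ± SE) for 21 pairs of related genes, with the first-named gene as a red circle and the second-named relative as a grey square, ordered by the distance between them. Open circles are genes above background on no TH array, drawn at their measured value, which is no measured difference. Among pairs with both genes above background, NPM2 with NPM1 lay 9.14 apart and LDHB with LDHA -5.48.

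The communication genes of the 2 compartments were set out by role. Among connexins, 4 of 10 measured genes (12 on the array) were higher and 5 lower, beside 42.8% and 39.0% of all measured genes. GJA4, the connexin of the oocyte side of the gap junction with cumulus, differed by 4.62 (SE 0.33, limma adjusted p = 4.6e-09), from -0.18, -1.36, -1.21 and -1.19 to -5.72, -6.09, -5.11 and -5.49. GJA1, the connexin of the somatic cells, had -1.12, -0.65, -0.48 and -0.76 in the oocyte and 5.10, 5.08, 5.07 and 5.08 in TH. GJC1 differed by 4.19 (SE 0.16, limma adjusted p = 4.4e-12), and GJB2 was at least 2.73-fold higher although its probes ranged from -0.30 to 7.04.

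Of the growth factors and receptors, 5 of 23 measured were higher and 13 lower (25 on the array, median -1.48). The shares over all measured genes, also for the Hedgehog counts below, were 42.8% and 39.0%. KIT, the receptor of the oocyte, had 2.34, 2.41, 2.31 and 2.28 against 0.97, 0.16, 0.11 and -0.52, and its ligand KITLG was higher too, by a difference of 2.41 (SE 0.28, limma adjusted p = 1.2e-06). PDGFRA, the receptor of stromal cells, was at least 139-fold lower. For the Hedgehog pathway, through which granulosa cells signal to the theca, 4 of 11 measured genes were higher and 7 lower (12 on the array). GLI1, the transcriptional read-out of the pathway, had -5.19, -5.19, -5.42 and -5.16 in the oocyte and 1.35, 1.57, 1.04 and 1.30 in TH, a difference of -6.56 (SE 0.36, limma adjusted p = 1.9e-10). The higher genes included the inhibitor SUFU, at 3.43 (SE 0.25, limma adjusted p = 5.7e-09), and the co-receptor BOC, at 3.71 (SE 0.27, limma adjusted p = 5.5e-09).

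Immediate early genes, which respond to stimulation and to tissue handling, were lower in 11 of 16 measured cases and higher in 2 (17 on the array, median -0.90). FOS had -2.28, -2.03, -1.79 and -1.93 in the oocyte and 3.72, 4.04, 3.04 and 3.87 in TH, beside means of 3.11 in GC and 5.98 in CC. EGR1 differed by -4.45 (SE 0.40, limma adjusted p = 6.1e-08). FOSL2, of the same family as FOS, ran the other way, at 2.76 (SE 0.23, limma adjusted p = 3.3e-08). The part of handling time in this difference was not tested.

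Genes of energy and lipid metabolism were counted by pathway, beside the 42.8% higher and 39.0% lower among all measured genes. Of 21 measured glycolysis genes (22 on the array), 15 were lower in the oocyte and 3 higher, with a median of -1.60. PFKM, the muscle isoform of phosphofructokinase, had -4.91, -4.95, -5.86 and -5.43 against -1.04, -1.08, -0.74 and -0.12, and phosphoglycerate kinase (PGK1) differed by -3.10 (SE 0.23, limma adjusted p = 8.3e-09). The exceptions were HK2, GPI and LDHA. Hexokinase 2 (HK2) had -0.05, 0.10, 0.15 and 0.06 in the oocyte and -3.72, -2.88, -3.37 and -3.70 in TH. The isomerase GPI differed by 1.09, and LDHA is described above. The GAPDH probes were above background on no array of either group, and that gene has no value here.

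Fatty acid synthesis had 9 higher and 7 lower genes of 20 measured (21 on the array), shares close to those of all measured genes, with a median of 0.29 that turned to -0.04 with the percentile over detected probes and to -0.22 under normexp. The elongase ELOVL4, which extends very long chains, had 3.78, 3.92, 3.66 and 3.78 in the oocyte and -2.94, -2.46, -2.69 and -2.33 in TH, a difference of 6.39 (SE 0.33, limma adjusted p = 9.6e-11). ELOVL3, another elongase, differed by 4.79 (SE 0.16, limma adjusted p = 9.3e-13), with probes from 2.20 to 7.38. The desaturase FADS2 had -4.34, -4.59, -4.21 and -3.97 in the oocyte and 1.60, 2.57, 1.92 and 2.24 in TH, a difference of -6.36 (SE 0.24, limma adjusted p = 3.1e-12), and the desaturase SCD differed by -2.89 (SE 0.31, limma adjusted p = 4.7e-07). Fatty acid synthase (FASN) differed by -2.96 (SE 0.62, limma adjusted p = 0.00052), or 0.12 for the adjusted p within slide 1. ACACA, which makes its substrate, was above background on 2 TH arrays and differed by 2.71 in the other direction, with an adjusted p of 0.17 under normexp.

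Of 20 measured genes of triacylglycerol storage and lipolysis (22 on the array), 8 were higher and 11 lower. CIDEA, which promotes droplet fusion, had 1.99, 2.33, 2.27 and 2.27 in the oocyte and -2.71, -3.24, -2.84 and -2.15 in TH, a difference of 4.95 (SE 0.68, limma adjusted p = 9.0e-06). The related CIDEC was at least 10.1-fold higher, and the droplet coat gene PLIN2 differed by 1.29 (SE 0.33, limma adjusted p = 0.0028), with an adjusted p of 0.070 within slide 2. In contrast PLIN5, the coat protein of oxidative tissues, had -4.49, -3.89, -4.65 and -4.41 in the oocyte and 2.82, 2.43, 2.76 and 2.75 in TH. GPAM, the acyltransferase that opens glycerolipid synthesis, was at least 51.1-fold lower (limma adjusted p = 5.8e-12).

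In the list of lipid uptake and transport 7 of 24 genes were higher and 14 lower (median -0.95). LPL, the lipase that releases fatty acids from lipoproteins, had 2.82, 2.73, 3.29 and 3.46 in TH and was above background on 1 oocyte array, a difference of -10.22 (SE 0.31, limma adjusted p = 2.8e-13), and SCARB1 and APOA1 are given above. FABP3, an intracellular carrier of fatty acids, had 3.47, 3.70, 4.03 and 3.94 in the oocyte and 0.38, 0.28, -0.22 and 0.28 in TH, and the transporter SLC27A6 was at least 8.03-fold higher (limma adjusted p = 1.2e-10). FABP5 differed by 4.15 (SE 0.51, limma adjusted p = 2.3e-06), with probes from -0.89 to 4.65.

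**Figure D5:**
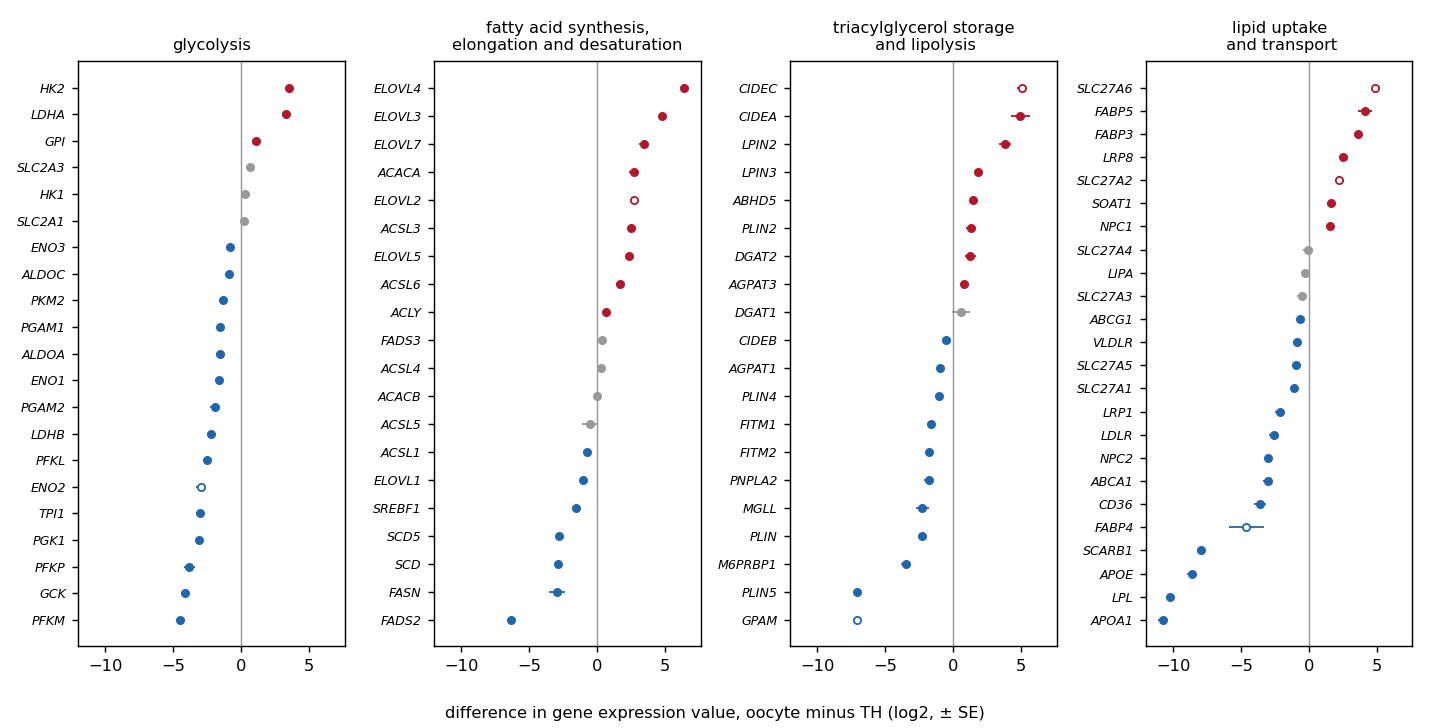
Difference in gene expression value (log2, oocyte minus TH, bars ± SE) of the measured genes of glycolysis, fatty acid synthesis, triacylglycerol storage and lipid uptake, red for higher and blue for lower at an adjusted p below 0.05 and grey otherwise. Open circles are genes above background on no array of a group, drawn at their measured value. Among genes measured in both groups, HK2 (3.48), ELOVL4 (6.39), CIDEA (4.95) and FABP5 (4.15) had the highest differences of their panels.

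Cholesterol synthesis was lower in 12 of 23 genes and higher in 5 (median -0.82, or 0.03 in the deposited log2 table). HMGCS1, at the entry of the pathway, had 5.46, 5.43, 5.46 and 5.51 in the oocyte and 3.84, 3.82, 3.30 and 4.07 in TH. Its regulator INSIG1 differed by 2.16 (SE 0.29, limma adjusted p = 7.3e-06). Among the lower genes HSD17B7, of the later steps, differed by -6.89 (SE 0.24, limma adjusted p = 1.2e-12). Fatty acid oxidation had 13 lower and 1 higher gene of 25 (median -0.52), with the mitochondrial isomerase ECI1 at -4.05 (SE 0.30, limma adjusted p = 5.9e-09) and CPT1A, the gate of mitochondrial entry, at -1.21 (SE 0.26, limma adjusted p = 0.00077), or 0.068 within slide 2.

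The translation machinery differed between cytosol and mitochondrion. Of 81 measured cytosolic ribosomal protein genes (82 on the array), 80 were lower in the oocyte (median -2.79), and the exception was RPL26L1, a divergent copy of RPL26, at 0.90, with an adjusted p of 0.058 within slide 1. These genes have many near-identical copies, so that a probe may read several. Of 76 mitochondrial ribosomal protein genes, 44 were higher and 16 lower (median 0.72), from MRPS34 at -3.54 to MRPS31 at 3.63. Over all measured genes 42.8% were higher and 39.0% lower. The proteasome had 15 higher and 12 lower of 39 subunits (median 0.27, or -0.05 with the percentile over detected probes). Its inducible catalytic subunits PSMB8, PSMB9 and PSMB10, which also serve class I presentation, were lower by -4.79, -3.85 and -6.70, and so was the core subunit PSMA1, by -5.81, beside PSMA5 at 1.98. The subunits of NADH dehydrogenase were lower in 21 of 37 cases and higher in 7 (median -0.57, or 0.06 in the deposited log2 table).

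Genes commonly used as references did not hold a common level. ACTB, the cytoplasmic actin, had -1.41, -1.52, -1.15 and -0.82 in the oocyte and 5.49, 5.43, 5.29 and 5.52 in TH, a difference of -6.66 (SE 0.22, limma adjusted p = 8.3e-13) with probes from -11.28 to -2.04. PPIA differed by -1.81 and SDHA by -2.10, while TBP, above background on 1 TH array, differed by 1.28 and by -0.11 under normexp. HPRT1 and YWHAZ differed by 0.08 and 0.14 and were not called, but reached 0.69 and 0.70 in the deposited log2 table, where both were. In all, 2 of 11 measured reference genes were higher and 5 lower (12 on the array, median -0.34). Among all measured genes 42.8% were higher and 39.0% lower. Of 9 measured intermediate filament and lamin genes (10 on the array), 2 were higher and 4 lower, with KRT18 at -5.63 (SE 0.77, limma adjusted p = 8.5e-06) and the lamin LMNB2 at 1.73.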

How the data were processed

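Gene expression was measured on 1-colour Agilent arrays of 61325 bovine probes. Intensity values were produced by the authors as the background-corrected signal of Agilent Feature Extraction (version 10.7.3.1, from the submitters' processing notes), and coordinates are on build UMD 3.1 per the file headers. The deposited log2 table held each array's log2 median signal centred on its median, and was used as an alternative. Control spots and outlier spots were left out, and the processed intensity was scaled to the 75th percentile of each array on a log2 scale. The median was taken over the probes of each of 22550 genes or transcripts, of which 17603 have a symbol (734 probes without a gene name were matched to one by accession).

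The 16 arrays of theca, granulosa, cumulus and oocyte were fitted together with limma 3.58.1 (R 4.3.3), as the methods compare the 4 cell types in one analysis, and oocyte minus TH was tested with Benjamini-Hochberg adjustment at 0.05. On simulated data with 200 changed genes of 22550, this comparison recovered 23.5% of changes of 1 log2 unit and 79% of changes of 2. Far more genes passed in the data (7339 higher and 7238 lower), so these percentages do not give the recovery there. Named genes are the 12 and 12 largest differences among genes above background in both groups whose arrays did not overlap. Also named are the 8 and 8 largest limits among genes at background in 1 group, and members of gene lists, marker lists and pairs. The members, lists and pairs were chosen with earlier results of these data known, and p-values are adjusted over all genes only.

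Alternatives were quantile and array-median scaling, the percentile over detected probes, normexp (offset 50), the deposited log2 table, mean or brightest probe, a filter on dim genes, 8 or 20 arrays, replicate or slide as a block, each slide alone, array weights, an intensity trend, the Tukey test of the methods and leaving out each replicate. Slide 1 held replicates 1 and 2 of each cell type and slide 2 held replicates 3 and 4. The fit on genes above background on all 8 arrays, scaled on these, was chosen after seeing the data. The 4 arrays of matured cumulus cells entered only the 20-array fit. Tables and figures were made with Python 3.11.15, pandas 2.3.3 and matplotlib 3.10.9. A few items are not reported here.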

Additional observations from a re-analysis of the deposited data

Results flagged for a closer look

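In 33 of 406 groups of 4 arrays tested over the named genes, a single array lay far from the other 3 by Dixon's test. Chance alone gives about 1 in 20 such groups, and the values were not weighed further. Oocyte replicate 1 stood apart in 8 genes, with 2.84 for CD81 (others -0.40 to -0.21), -1.34 for COL4A1 (others -0.90 to -0.88), 3.49 for CSF1R (others 3.74 to 3.79) and -0.18 for GJA4 (others -1.36 to -1.19). It also gave 3.60 for PABPC1L (others 4.18 to 4.22), 0.61 for SALL4 (others -1.33 to -1.12), 2.80 for SDHA (others 3.41 to 3.46) and 1.00 for VWF (others -1.32 to -0.95).

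Oocyte replicate 2, the array with the fewest probes above background, stood apart in 6 genes. It read higher than the other oocyte arrays for genes at or near background there, with -6.30 for EMCN (others -8.07 to -7.93), -6.32 for LOXL2 (others -7.97 to -7.80) and -6.26 for PECAM1 (others -8.05 to -7.78). It read lower for 6.23 in NLRP9 (others 6.62 to 6.67), 4.89 in ZP2 (others 5.36 to 5.44) and 4.57 in ZP3 (others 5.10 to 5.14). Oocyte replicate 3 gave -5.42 for GLI1 (others -5.19 to -5.16) and 1.52 for TEK (others 1.26 to 1.28).

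Among the TH arrays, replicate 1 gave -6.34 for DNMT3B (others -7.47 to -7.28), -6.74 for FBXO43 (others -7.31 to -7.21) and -6.72 for KHDC3L (others -7.28 to -7.21), and replicate 3 gave -6.08 for DBX1 (others -7.58 to -7.33). Replicate 2 gave -5.93 for CASR (others -7.27 to -7.10), 2.43 for PLIN5 (others 2.75 to 2.82), -7.44 for SALL4 (others -7.28 to -7.24), -2.94 for SCD (others -4.01 to -3.93), 5.29 for SDHA (others 5.40 to 5.41) and 6.51 for SPARCL1 (others 6.80 to 6.83). Replicate 4 gave 4.38 for CD81 (others 2.25 to 2.33), -1.53 for CYB5A (others -0.97 to -0.87), -5.79 for DMC1 (others -7.31 to -7.06) and -2.25 for DNMT3A (others -1.15 to -1.05). It also gave -1.71 for LMNB2 (others -2.53 to -2.40), 3.14 for MRPS34 (others 2.23 to 2.28) and -5.26 for NLRP9 (others -7.42 to -7.11).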

How the results depend on the processing

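Over 26 alternatives for 203 named genes, 5121 of 5185 values kept their direction and their side of the threshold, 24 lost the call, 31 gained one and 9 changed sign. The sign changed under normexp for PIWIL1 (-0.69), PIWIL2 (-0.09), SOHLH1 (-0.93), TAF4B (-0.58), TBP (-0.11) and TET3 (-0.27), with the brightest probe for SOHLH1 (-2.44) and TLE6 (-2.42), and in the deposited log2 table for NPM1 (0.59). Of 7766 genes called at least 4-fold different and above background, 7437 kept their direction under normexp. All kept it within slide 1, within slide 2, under quantile normalisation and in the deposited log2 table. Each slide held part of the arrays by which these genes were picked, so the kept direction is no independent replication.

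The counts moved more. The number of lower genes (7238) became 14488 under normexp, 11877 in the deposited log2 table, 11294 with array weights and 11066 without oocyte replicate 2. On the genes above background on all 8 arrays, a setting chosen after seeing the data, 4650 genes were higher and 3923 lower, and 2050 and 1868 at least 4-fold. The number at least 4-fold higher (3900) was 2092 under normexp, and that at least 4-fold lower (3960) was 2523 in the deposited log2 table. The cause was not tested. Leaving out each replicate in turn gave 7111 to 7355 higher and 6640 to 11066 lower genes, and 3809 to 3967 and 3842 to 4252 at least 4-fold. The median over all genes moved from -0.42 to 0.05 under quantile normalisation and -1.16 under normexp. The list medians of the Hedgehog and growth factor genes turned to 1.26 and 0.33 on the genes above background on all 8 arrays.

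Same-numbered oocyte and TH arrays did not deviate together (correlations of -0.271, 0.119, -0.00952 and -0.196 over 10008 genes), so the numbers were not taken to pair the samples. With the replicate block, 7377 genes were higher and 7304 lower, and 3900 and 3960 at least 4-fold. Signal over background limited the comparison at the low end, where 701 lower and 162 higher calls fell on genes above background on fewer than 3 arrays of both groups.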
